A study of Drosophila melanogaster with 4 samples.

Results

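The broad H2Av domains are stretches of 10 kb or more that the authors called as a single enriched region in the combined list of the series, on X, 2L, 3L or 3R, and that overlapped a region of both ChIP replicate lists by at least 1 bp. There were 524 such domains among the 5398 combined-list regions of these 4 arms, or 9.71% of them, and among 7944 combined-list regions on all sequences. Just 1 more region reached 10 kb on these arms. It lay on 2L at 21727436 to 21738880, was wholly covered by replicate 1, met no region of replicate 2 and was therefore left out. The domains were chosen by measured values, namely their width in the combined list and their overlap with the replicates, so their widths, their scores and the contrasts with narrower regions are given as description, with no test.

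Chromatin came from nuclei of Oregon-R larvae (Oregon-R-modENCODE, wild type) at the 3rd Instar Larvae stage, crosslinked with formaldehyde and sonicated, and was precipitated with the antibody labelled H2AV 9751. The series has 2 ChIP libraries and 2 input libraries, of which the ChIP libraries have region lists, and the labels tie each list to the input of the same number. Larvae hold many tissues, so a region is an average over their nuclei, and the labels do not say how many larvae went into a library or whether the replicates came from separate collections. All libraries share strain, genotype and stage, so no condition was compared. The lists give positions on FlyBase release 5 and a score that no label or header defines. Read depth is unknown.

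H2Av is the H2A variant of Drosophila and stands in for both H2A.Z and H2A.X of mammals. As H2A.Z, it is placed in nucleosomes near the starts of active genes by remodelling complexes that contain the ATPase Domino. As H2A.X, it is phosphorylated around DNA breaks. It has also been tied to the formation of heterochromatin and to Polycomb silencing in flies. Domains that run over many nucleosomes are thus of interest beside the narrow regions typical of single promoters.

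Domains covered a modest part of the sequence but a large part of what was called. They held 8.68 Mb, which was 8.86% of the 4 arms and 35.1% of the 24.7 Mb in combined-list regions there. The arms carried 114 (X), 130 (2L), 131 (3L) and 149 (3R) domains, or between 5.08 per Mb on X and 5.65 per Mb on 2L. Domains made up 39.9% of the combined-list bases of 2L, 34.7% on 3L, 33.4% on X and 32.8% on 3R. The arms were thus alike in how many domains they had per Mb, and 2L had the highest share of bases in them.

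Most domains were close to the width limit. The median width was 14.4 kb, with 10% of domains under 10.6 kb and 10% over 25.3 kb. Domains under 12 kb numbered 146 (27.9%), those of 15 kb or more 237 (45.2%), those of 20 kb or more 105 (20.04%) and those of 30 kb or more 31 (5.92%). The 2 narrowest domains measured 10001 bp, and the 2 widest regions left out by the limit measured 9985 bp. Just inside the limit, scores were 0.57, 1.21 and 1.07, and just outside it they were 0.81, 1.07 and 1.26. These regions were picked as the nearest to the limit in width, so a step in width could not show, and their scores overlapped. Replicate 2 covered 93.1%, 83.1% and 98.0% of those just inside, and 58.5%, 65.2% and 47.3% of those just outside. For replicate 1 these were 69.9%, 98.6% and 98.5% inside, and 79.1%, 97.9% and 92.5% outside. So few regions do not describe the limit as a whole.

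The widest domain lay on 3L at 23216464 to 23283926 and measured 67.5 kb, 1.26 Mb from the assembled end of the arm next to the centromere. Replicate 1 met it with 5 regions over 97.2% of its length and replicate 2 with 4 regions over 89.3%. A second domain of 3L, at 23672782 to 23726796, measured 54.0 kb. These 2 were the domains over 50 kb, and both lay within 2 Mb of the centromere-side end. The widest domains of X, 2L and 3R lay 6.54, 12.6 and 21.03 Mb from that end. On X, at 15832642 to 15881666, 49.0 kb were covered to 100% by a single replicate 1 region of 49.2 kb and to 98.98% by a single replicate 2 region of 48.5 kb. This was the widest domain that both replicates called whole. On 2L, at 10411698 to 10460262, 48.6 kb were met by 3 regions of replicate 1 and 1 of replicate 2. On 3R, at 21034056 to 21076790, 42.7 kb were met by 4 regions of replicate 1 and 2 of replicate 2.

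Domains scored higher than narrow regions in the combined list. Narrow regions here are the 2407 regions of the same arms under 10 kb that also overlapped both replicates. The score of the domains ran from 0.45 through a median of 1.16 to 2.10, against a median of 0.84 in the narrow regions, whose highest score was 4.07. Of the domains, 455 scored above the narrow median, which is 86.8% (Clopper-Pearson 95% interval 83.6 to 89.6, which covers counting error only, since neighbouring domains are not independent). The ranges overlapped widely, since 433 narrow regions (18.0%) scored above the domain median and 11 domains (2.10%) scored under the 25th percentile of the narrow regions. Domains made up 33.6% of the 539 regions in the top 10% of scores on these arms. Narrow shared regions made up 51.9% of that top group, and regions lacking an overlap with at least 1 replicate 14.5%. Domains were more common there than among all regions.

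Score followed width less closely among the domains than among narrow regions. The Spearman correlation of width and score was 0.18 across 524 domains and 0.53 across the 2407 narrow regions. The 2 sets were cut by width and span unlike ranges. Without the lowest and highest 10%, widths ran from 10.6 to 25.3 kb in domains and from 2.46 to 8.12 kb in narrow regions. How much of the difference in correlation comes from these ranges was not tested. The median score was 1.06 for domains of 10 to 12 kb, 1.15 for 12 to 15 kb, 1.17 for 15 to 20 kb, 1.22 for 20 to 30 kb and 1.21 for 30 to 40 kb. It was 1.42 for the 7 domains of 40 to 50 kb and 1.34 for the 2 above that. By arm it was 1.20 on X, 1.18 on 2L, 1.11 on 3L and 1.12 on 3R, differences that are small beside the SD of 0.26 to 0.33 among the domains of an arm. The combined score had a Spearman correlation of 0.80 with the base-weighted score of replicate 1 and of 0.85 with that of replicate 2. How the combined score was made is not stated, and these lists share libraries. Between the replicates themselves the correlation across domains was 0.46. The points share library and depth, so these values are a description.

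**Figure D1:**
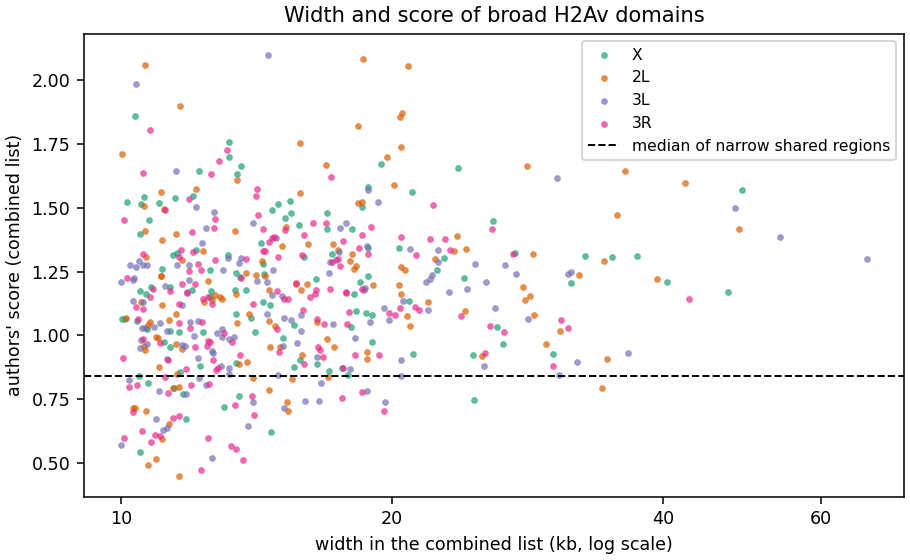
Width in the combined list (kb, log scale) against the authors' score for each of the 524 broad domains, coloured by arm, with the median score of narrow shared regions (0.84) as a dashed line. Most points lie above the line at every width, and the cloud spans similar scores at most widths.

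The 5 highest-scoring domains were not the widest. They lay at 23110090 to 23124662 of 3L (score 2.10), on 2L at 22801006 to 22819550 (2.08), 22462844 to 22473456 (2.06) and 22231404 to 22252256 (2.05), and on 3L at 19791540 to 19801914 (1.99). Their widths ran from 10.4 to 20.9 kb. The first 4 lay within 1.42 Mb of the centromere-side end of their arm, and the last 4.74 Mb from it. Both replicates met 4 of them with a single region each and the domain at 22231404 with 3.

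Domains were denser next to the centromere on the autosomal arms than elsewhere. The 2 Mb of assembled sequence on the centromere side of each arm made up 8.17% of the sequence and held 83 domains, or 15.8% (95% interval 12.8 to 19.3). The density there was 14 per Mb on 2L, against 4.85 per Mb on the rest of that arm, 13 against 4.66 on 3L and 9.5 against 5.02 on 3R. On X it was 5 per Mb against 5.09. Each arm is a single observation, so the contrast between X and the autosomal arms was not tested. How many narrower regions lay in these stretches was not counted, so the density was not shown to be particular to domains. In the stretch next to the centromere, domains had a median width of 14.9 kb against 14.4 kb elsewhere and a median score of 1.19 against 1.15. The domains were thus more frequent per Mb there, and their median width and score were close to those elsewhere. The upper ends ran higher. There, 10% of domains were over 30.4 kb and 10% scored above 1.66, against 24.1 kb and 1.48 elsewhere.

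The domains were unevenly spread over windows of 1 Mb. In 96 full windows their number ran from 0 to 20 with a median of 5, and the variance over the mean was 3.69 on 2L, 2.49 on 3L, 1.92 on 3R and 1.23 on X. Without the centromere-side 2 Mb, the 88 windows left held 0 to 14 domains, and the variance over the mean was 2.41 on 2L, 1.84 on 3L, 1.80 on 3R and 1.33 on X. The window of 2L next to the centromere held 20. Windows with 10 or more domains numbered 10, of which 6 lay outside the centromere-side 2 Mb. Windows as rich as 14 domains on 2L and 12 on 3L lay 12 to 13 Mb from the centromere-side end, and 12 on X lay 6 to 7 Mb from it. Windows without a domain numbered 3. In these windows X had the lowest variance over the mean, although it also held the longest stretch without a domain.

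**Figure D2:**
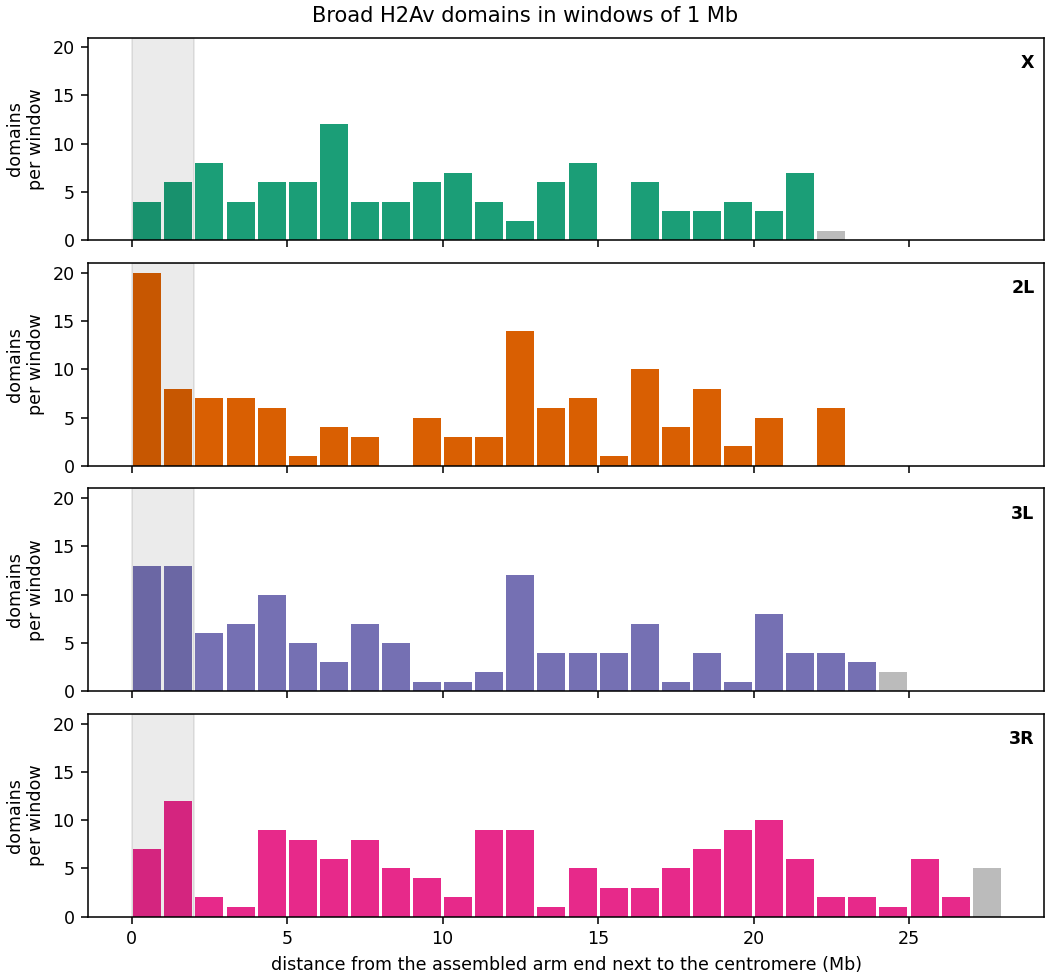
Number of broad domains in windows of 1 Mb (vertical axis) by distance from the assembled arm end next to the centromere (Mb), for X, 2L, 3L and 3R, with the last, incomplete window in grey and the centromere-side 2 Mb shaded. The tallest bar is the first window of 2L with 20 domains, and the shaded windows of X hold 4 and 6.

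Domains lay at uneven distances, and many had another close by. No random placement was drawn, so whether this nearness exceeds that of scattered domains at the same density was not tested. The gap from a domain to the next had a median of 73.7 kb and a mean of 169.8 kb, with 25% of gaps under 14.5 kb and 25% over 237.9 kb. Another domain lay within 50 kb of 348 domains, or 66.4% (95% interval 62.2 to 70.4). The interval covers counting error only, since 2 neighbouring domains each count as near the other. Within 10 kb there was another domain for 190 (36.3%) and within 1 kb for 46 (8.78%). On 2L the median gap was 32.03 kb, against 84.3 kb on 3L, 89.2 kb on 3R and 99.03 kb on X. When domains at most 50 kb apart were joined, they formed 113 chains of at least 2, while 176 domains (33.6%) stood alone. Chains of 5 or more numbered 15 and held 98 domains. They lay on 2L (6), 3L (4), X (3) and 3R (2).

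**Figure D3:**
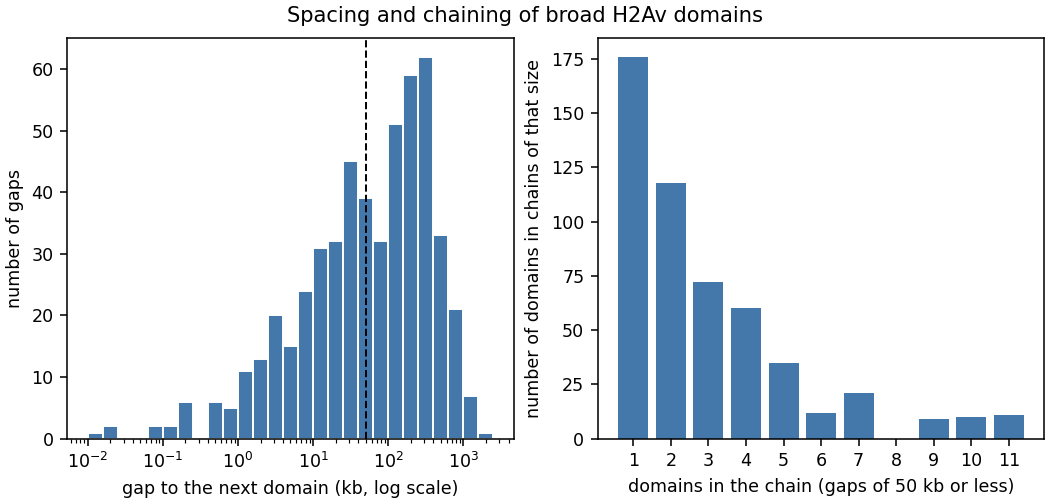
Left, gaps between consecutive domains of an arm (kb, log scale), with 50 kb as a dashed line. Right, the number of domains by the size of the chain they belong to, where 176 domains stand alone and the longest chain holds 11.

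The closest gaps were very small. Of 520 gaps, 24 were of 1 kb or less and the smallest measured 0.013 kb, so some neighbouring domains are separated by less than the 1001 bp of the narrowest region in the combined list. Next to a domain, the nearest combined-list region of any width lay a median of 2107 bp away. For narrow shared regions it was 2469 bp. Within 10 kb of the edge there was a further region at 87.3% of domain edges and 79.2% of narrow-region edges. Domains therefore sat among other called regions, narrow or broad, slightly more often than narrow regions did.

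The longest chain lay in the middle of 2L, at 10190778 to 10524388, more than 12 Mb from the centromere-side end. It held 11 domains over 333.6 kb, and they filled 66.3% of the span. The domains measured 10.01 to 48.6 kb, were 0.231 to 27.6 kb apart and scored 0.85 to 1.86, with a median of 1.66. Of the 11 domains, 8 scored above the median of all domains, 1.16. Replicate 1 covered 97.7% of the domain bases of this chain and replicate 2 90.4%, and each called 7 of its domains whole. In replicate 2 the domain at 10461646 to 10485748 was the least covered, with 60.2% against 99.4% in replicate 1.

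The other 2 of the 3 longest chains lay in the centromere-side 2 Mb of their arms, and there the replicates parted. A chain of 10 domains ran over 352 kb at 22635258 to 22987230 of 2L, to within 24.3 kb of the assembled end. Replicate 1 covered 93.1% of its domain bases and called 4 domains whole, and replicate 2 covered 80.5% and called 1 whole. A chain of 9 domains ran over 284.5 kb at 22999384 to 23283926 of 3L and ended in the widest domain of all. Its domains filled 70.6% of the span. Replicate 1 covered 96.2% of them and called 4 whole, and replicate 2 covered 75.2% and called none whole. The 2 lists thus differed by 7.33 points of coverage in the mid-arm chain and by 12.6 and 21.0 points in the chains near the centromere. Other chains did not all follow this order. The 3 chains of 7 domains differed by 19.7 points on 2L, 23.7 on 3L and 1.57 on 3R. These lay 0.678, 4.05 and 11.0 Mb from the centromere-side end.

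Long stretches carried no domain. There were 43 of 500 kb or more, counting arm ends, and 8 of 1 Mb or more. The longest was 1.66 Mb of X at 5948501 to 7604471, which held 96 combined-list regions, all of them under 10 kb. A stretch of 1.16 Mb on 2L at 13837393 to 15002311 held 15. A long absence of domains therefore went with many narrow regions in some places and with few in others. The most isolated domain lay on 3L at 13970010 to 13996030, 938.4 kb from its nearest neighbour, followed by 3R at 2952136 to 2971962 (759.7 kb) and X at 4526592 to 4545390 (650 kb). These had widths of 26.02, 19.8 and 18.8 kb, all above the median of 14.4 kb, and the replicates covered them to between 89.2% and 100%.

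Both replicates covered nearly all of a typical domain, and each broke many of them into pieces. The median domain was covered to 95.9% by replicate 1 regions and to 93.8% by replicate 2 regions (94.8% ± 1.51, SD, n = 2). A single region met 214 domains (40.8%) in replicate 1 and 314 (59.9%) in replicate 2 (50.4% ± 13.5, SD, n = 2). For the narrow shared regions, which are shorter, these shares were 87.9% and 91.6%. Replicate 1 met 191 domains with 2 regions, 87 with 3 and 32 with 4 or more, up to 7. Replicate 2 met 151 with 2, 40 with 3 and 19 with 4 or more, up to 6. The mean number of regions per domain was 1.90 in replicate 1 and 1.57 in replicate 2, so replicate 1 broke domains up more and left less of them uncovered. The lists differed in size, with 6752 regions over 25.4 Mb of these arms in replicate 1 and 3372 over 17.9 Mb in replicate 2. Whether the contrasts between the replicates follow from list size was not tested.

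Many domains were broken in only 1 replicate. Both met 148 domains (28.2%) with a single region each, 166 (31.7%) were split in replicate 1 alone, 66 (12.6%) in replicate 2 alone and 144 (27.5%) in both. Of the 210 domains split in replicate 2, 68.6% were also split in replicate 1, which split 59.2% of all domains. The Spearman correlation of the number of regions across the 524 domains was 0.23, and that of the percent covered was -0.03. A domain called whole is one of which a single replicate region covered at least 90%. Replicate 1 called 186 domains (35.5%) whole and replicate 2 231 (44.1%), a mean of 39.8% ± 6.07 (SD, n = 2). Both called 99 whole (18.9%, 95% interval 15.6 to 22.5), replicate 1 alone 87, replicate 2 alone 132 and neither 206 (39.3%). In 125 domains replicate 2 called whole what replicate 1 had split, and the other way round in 54. Of the narrow shared regions, replicate 1 called 54.2% whole and replicate 2 44.7%. The share whole in replicate 2 was thus about the same in domains and narrow regions.

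**Figure D4:**
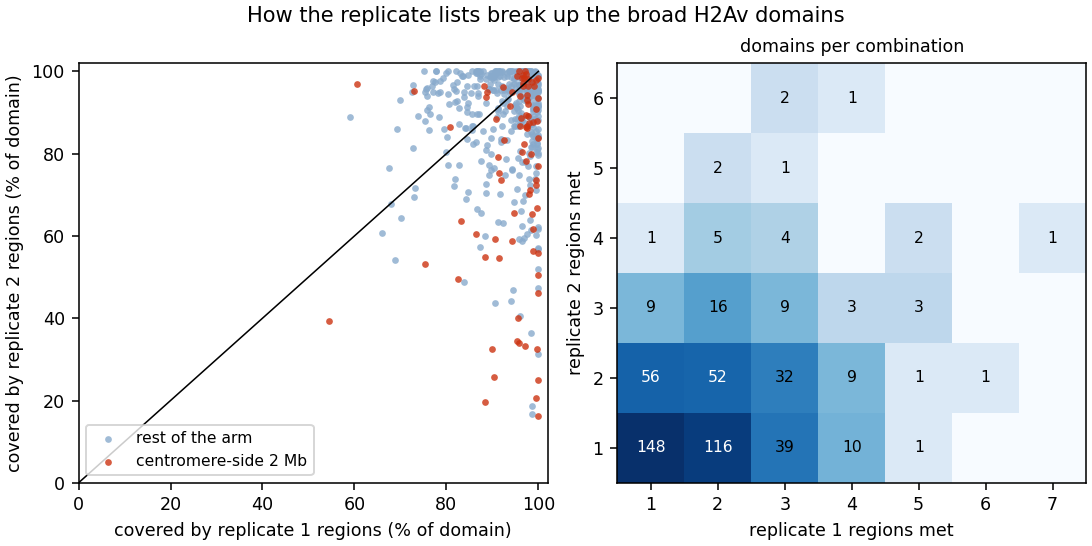
Left, percent of each domain covered by replicate 1 regions against that by replicate 2 regions, with domains of the centromere-side 2 Mb in red and the line of equality. Right, the number of domains for each combination of replicate 1 and replicate 2 regions met, where 148 met 1 of each; the points far below the line are covered by replicate 1 to a far greater extent, and 14 of the 24 under 50% in replicate 2 are red.

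Wider domains were met by more pieces, yet not in proportion to their width. In replicate 1 the mean number of regions was 1.61 for domains of 10 to 12 kb, 1.99 for 15 to 20 kb and 3.05 for 30 to 40 kb, and in replicate 2 it was 1.36, 1.53 and 2.64. Median coverage did not fall steadily with width in either replicate. The median percent covered by replicate 2 was 90.1% in domains of 10 to 12 kb and 95.3% in those of 15 to 20 kb, and by replicate 1 it was 96.6% and 95.5%. In domains of 20 to 30 kb it was 95.1% by replicate 2 and 97.7% by replicate 1. Per 10 kb, domains met 1.15 regions of replicate 1 and 0.946 of replicate 2. Narrow regions were covered to a median of 92.4% by replicate 1 and 88.5% by replicate 2.

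Breaks inside domains were mostly short. Between consecutive pieces, replicate 1 left 469 breaks with a median of 353 bp, of which 79.5% were under 1 kb, and replicate 2 left 296 with a median of 599 bp, of which 67.2% were under 1 kb. Regions of the other replicate covered 81% of the replicate 1 breaks wholly (379) and 75.7% of the replicate 2 breaks (224). By bases, replicate 2 covered 90.3% of the replicate 1 breaks and 88.05% of all domain sequence, and replicate 1 covered 93.5% of the replicate 2 breaks and 93.4% of all domain sequence. The breaks of a replicate were thus covered by the other to about the extent that domains were in general. A break of replicate 1 touched a break of replicate 2 in 61 cases, or 13.0%. The widest break of replicate 2 was 8881 bp on 3R at 175234 to 184114, of which replicate 1 covered 7880 bp. The widest of replicate 1 was 5443 bp on X at 5852905 to 5858347, and replicate 2 covered all of it.

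By bases, 82.7% of the domain sequence lay in regions of both replicates, 10.6% in replicate 1 alone, 5.30% in replicate 2 alone and 1.33% in neither. Of the 1.04 Mb outside replicate 2 regions, replicate 1 covered 88.8%, and of the 0.576 Mb outside replicate 1 regions, replicate 2 covered 79.9%. Nearly all of the domain sequence was thus called in at least 1 of the replicates.

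Replicate 1 followed the outer edges of the domains more closely than replicate 2. Over 1048 edges, the outermost replicate 1 region that met the domain ended a median of 171 bp from the edge, and 79.6% ended within 500 bp. For replicate 2 these were 331 bp and 59.2%. Replicate regions ended short of the domain at 68.9% and 66.1% of the edges. Replicate 2 ended over 5 kb short at 20 edges and ran over 5 kb beyond at 21, and replicate 1 did so at 0 and 8. Only 5 regions of replicate 1 and 6 of replicate 2 bridged 2 domains, and none bridged more. The widest of them was a replicate 2 region of 31.01 kb on 2L at 4436130 to 4467140. It crossed a gap of 5061 bp between 2 domains. The combined list called further, narrower sequence in that gap, beginning 443 bp from the left domain and ending 59 bp from the right domain.

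A domain of the combined list was often not a broad region in a replicate list. Replicate 1 met 325 domains (62.0%) with a region that itself reached 10 kb, replicate 2 met 355 (67.7%), both did so for 248 (47.3%) and neither for 92 (17.6%). In those 92 the width of 10 kb exists in the combined list alone. In the other direction, 342 of the 364 broad regions of replicate 1 on these arms (93.96%) and 360 of the 393 of replicate 2 (91.6%) met a domain. Replicate 2 had 42.6% of its 17.9 Mb on these arms inside domains, and replicate 1 had 31.9% of its 25.4 Mb.

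The most broken domains differed between the replicates. In replicate 1 they were on X at 20053032 to 20100258 (7 regions, against 4 in replicate 2), on 3L at 4001506 to 4038110 (6 against 2) and the widest domain (5 against 4), the widest of 7 domains that replicate 1 met with 5 regions. In replicate 2 they were 21178052 to 21212256 of 2L, 24056798 to 24087434 of 3L and 22303506 to 22333204 of 2L, with 6 regions each against 3, 3 and 4 in replicate 1. The last 3 all lay within 2 Mb of the centromere-side end. Replicate 2 covered 71.2%, 54.6% and 40.05% of them, and replicate 1 98.1%, 91.4% and 95.5%.

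Replicate 1 covered more of the length in 304 domains (58.0%) and replicate 2 in 220 (42.0%). Differences of over 25 points were less balanced, with 63 domains covered more by replicate 1 and 2 by replicate 2. The largest differences were at 24383288 to 24394954 of 3L (100% against 16.3%), at 20163446 to 20177444 of 2L (98.5% against 16.7%) and on 3R at 7629972 to 7640758 (98.6% against 18.6%). In the opposite direction they were on 2L at 22939962 to 22951648 (60.5% against 96.9%), on 3R at 11200182 to 11212654 (59.1% against 89.02%) and on 3R at 23494346 to 23511094 (75.2% against 100%). No domain was covered to under 50% by replicate 1 (lowest 54.5%), and 24 were by replicate 2 (lowest 16.3%). In 220 domains (42.0%) the replicates were within 5 points of each other.

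**Figure D5:**
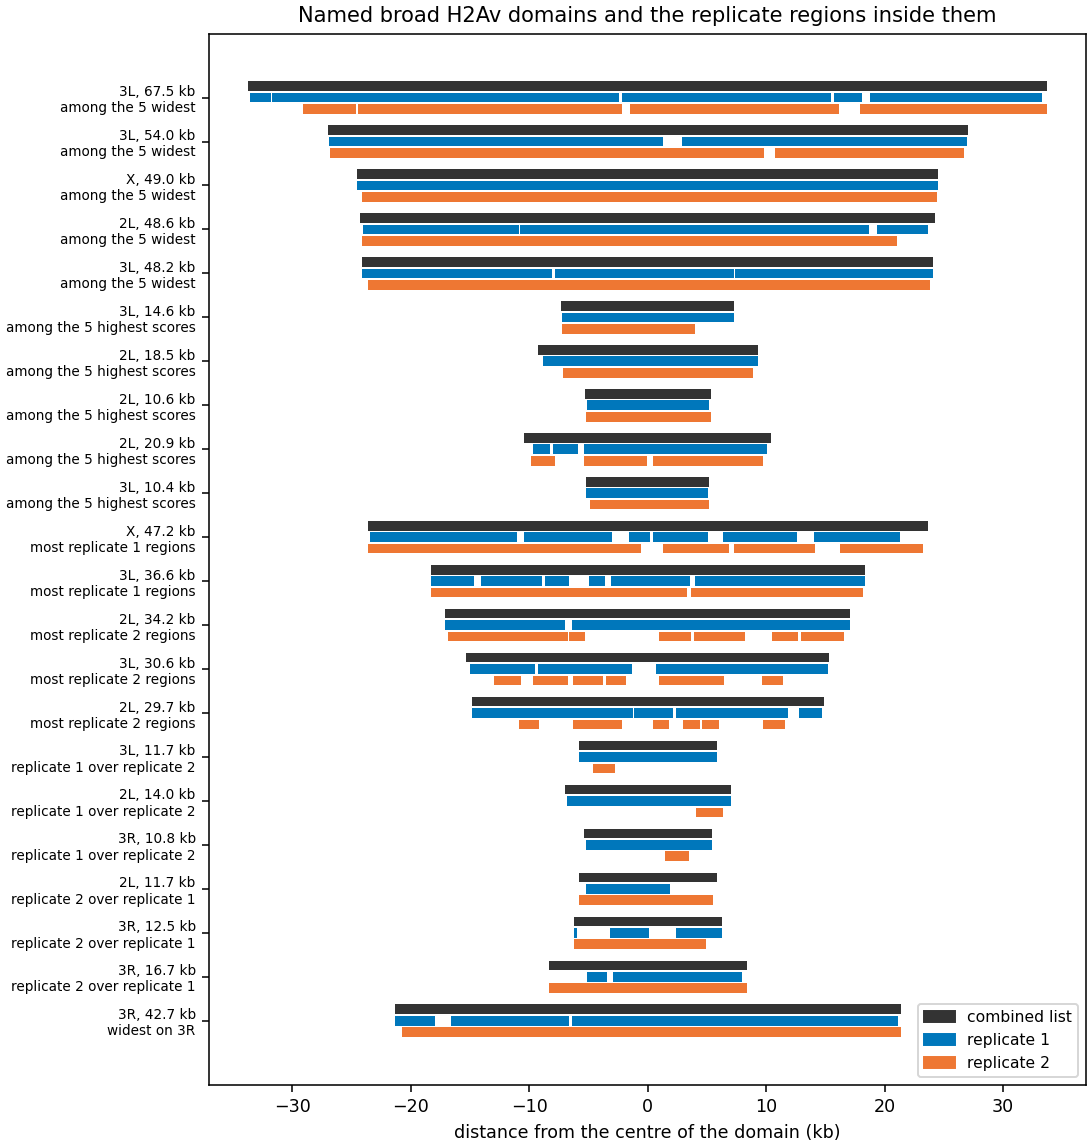
Named domains as called in the combined list (dark), with the regions of replicate 1 (blue) and replicate 2 (orange) inside them, drawn to scale by distance from the centre of the domain (kb). The 49.0 kb domain of X is unbroken in both replicates, and the 29.7 kb domain of 2L is met by 6 short replicate 2 regions. The shortest breaks are too narrow to be seen at this scale.

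By whole calls and by number of regions, the order of the replicates turned around next to the centromere. In the centromere-side 2 Mb, replicate 1 called 37 of 83 domains whole (44.6%, 95% interval 33.7 to 55.9) and replicate 2 16 (19.3%, 11.4 to 29.4). On the rest of the arms, replicate 1 called 149 of 441 whole (33.8%, 29.4 to 38.4) and replicate 2 215 (48.8%, 44.0 to 53.5). The mean number of regions per domain was 1.77 in replicate 1 and 2.08 in replicate 2 near the centromere, against 1.93 and 1.47 elsewhere. Median coverage by replicate 2 was 83.9% near the centromere and 94.7% elsewhere, while replicate 1 gave 96.9% and 95.8%. By median coverage replicate 1 was thus ahead in both places, by more near the centromere. With 2 libraries, this split rests on 1 library on each side and was not tested.

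By whole calls the order turned around on each arm, though X had few domains near the centromere. The share called whole in the centromere-side stretch was 42.9% in replicate 1 and 17.9% in replicate 2 on 2L (28 domains), 38.5% and 7.69% on 3L (26), 47.4% and 31.6% on 3R (19) and 60% and 30% on X (10). On the rest of each arm replicate 2 had the higher share, with 49.0% against 37.3% on 2L, 41.9% against 35.2% on 3L, 53.1% against 32.3% on 3R and 50% against 30.8% on X. By the mean number of regions per domain near the centromere, 3R did not follow, with 1.79 in replicate 1 and 1.74 in replicate 2, while replicate 2 had more on X (1.5 and 1.7), 2L (1.71 and 2.11) and 3L (1.92 and 2.46). On 3L, replicate 2 covered a median of 70.2% of a domain near the centromere, the lowest of the 4 arms. Of the 24 domains covered to under 50% by replicate 2, 14 lay in these stretches.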

How the data were processed

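The authors deposited 3 lists of enriched regions with a score per region, 1 for each ChIP replicate and a combined list. Bowtie 0.12.7 is the aligner named in the submitters' processing notes, and FlyBase release 5 is the build per the file headers. No label or header names a peak caller, a threshold, the meaning of the score or how replicates were joined. Every start in the combined list is an even number and its narrowest region is 1001 bp, against 49.9% to 50.0% even starts and 1301 bp in the replicate lists, so its edges were not taken over from theirs.

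Regions on X, 2L, 3L and 3R were compared with Python 3.11.15, pandas 2.3.3, numpy 2.4.6 and scipy 1.17.1. A replicate region that overlaps a domain by at least 1 bp is a piece of it, cut to the domain for coverage. Gaps are edge to edge, and chains join domains at most 50 kb apart. The centromere lies at the high end of X, 2L and 3L and at the low end of 3R. The interval code was tested on simulated data. No test was made, since the members were selected on these calls and no condition differs. Positions are printed by a rule: the widest, highest-scoring, most broken, most differing and most isolated domains, and the chains with the most domains. Members and lists were chosen with earlier results of these data known. The reference gene table follows release 6, so no gene is named, and no sequence is printed because no release 5 genome was used here.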

Additional observations from a re-analysis of the deposited data

How the results depend on the processing

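Of 57 alternative values, 34 stayed within the spread of the reported value and 23 moved beyond it, and no value had a test to lose. The spread was the SD of the 2 replicates for values per replicate, a fixed ratio for the number of domains and a 95% interval for shares. For shares of bases that interval took each base as independent and ran from 35.05% to 35.09%, so even 35.11% counted as moved. These counts are therefore not a measure of stability. With a width minimum of 15 kb there were 237 domains, holding 20.95% of combined-list bases. Of these domains, 48.5% had another within 50 kb and 91.98% scored above the narrow median. The new limit also put shared regions of 10 to 15 kb into the narrow set, so both sides of the last comparison changed. With at least 50% of a domain covered by each replicate, 33.6% of bases lay in domains, and 87.5% of the bases outside replicate 2 lay in replicate 1. In the higher-scoring 50% of each list these were 39.8% and 69.6%, and 60.4% had another within 50 kb, 66.2% scored above the narrow median and 74.8% were met by a single region. The cause was not tested. Leaving out a replicate dropped only the overlap asked of it, while the combined list, which sets widths and places, stayed the same. Since just 1 region of 10 kb or more lacked an overlap, the number, places and spacing of domains could hardly change. Without replicate 1 or replicate 2 there were 524 and 525 domains with 35.07% and 35.11% of bases. Another domain lay within 50 kb of 66.4% and 66.3%, and 15.8% and 16% lay in the centromere-side stretch. The share scoring above the narrow median was 88.5% and 98.9%, since regions of the remaining replicate alone then joined the narrow set. The values per replicate were 93.8% and 95.9% covered, 59.9% and 40.8% met by a single region, and 44.1% and 35.5% whole.

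Break-up depended most on short gaps. With replicate regions joined across 1 kb, 84.2% of domains were met by a single region and 67.8% were whole, median coverage was 96.5%, and 90.8% of the bases outside replicate 2 lay in replicate 1 (90.2% with the 15 kb minimum). With whole set at 80%, 50.7% were whole. Another domain lay within 25 kb of 52.3% and within 100 kb of 75.95%. A centromere-side stretch of 1 Mb held 8.59% of domains in 4.09% of the sequence, and one of 4 Mb 23.9% in 16.3%. Leaving out the centromere-side 2 Mb, an alternative chosen after seeing the data, moved none of the 5 results it was run on beyond their spread. Depth is unknown, so breaks in a replicate list cannot be told from missing reads. No paired analysis was possible because the ChIP lists are the sole group with values, so there is no second group to pair them with.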
